A study of Homo sapiens with 13 samples.

Results

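In MOLM-13 cells, 380 regions held both a PTBP1 peak and a RUNX1 peak at the start of a noncoding gene and lay away from the start of every protein-coding gene. They were found by merging peaks of both lists that overlapped by 1 base or more, keeping the merged regions with peaks of both proteins, and keeping those within 1 kb of the 5′ end of a GENCODE version 44 gene that is not protein-coding and not within 1 kb of a protein-coding gene's 5′ end. The 380 regions were 8.35% of the 4550 shared regions, of which 2859 lay at coding starts and 1311 lay away from any gene start. Of all 12367 merged regions 36.8% were shared, and of the 1006 merged regions at noncoding-only starts 380 were shared, or 37.8%, while 431 held PTBP1 peaks alone and 195 held RUNX1 peaks alone. The members were chosen by called peaks and gene starts, so the fold enrichments, widths and summit distances given below belong to the choice itself and carry no test.

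The cells, MOLM-13, are an established line from human acute myeloid leukemia. The series used CUT&Tag, a method that directs a transposase to chromatin with an antibody, and CUT&RUN, which directs a nuclease there. It held 13 libraries: PTBP1 and RUNX1 with 2 biological replicates in each assay, H3K27me3 and IgG with 2 each in CUT&RUN, and 1 IgG CUT&Tag library. The labels name a cell line and an antibody for each library and no treatment or genotype, and every library came from this single line. All values here come from the called PTBP1 peaks and the called RUNX1 peaks on hg38, 1 list for each protein with no value per replicate, so no spread between cultures can be given and each interval covers counting error only.

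PTBP1 is a nuclear RNA-binding protein that recognizes pyrimidine-rich RNA and regulates splicing. RUNX1 regulates transcription in blood cells, and its Runt domain recognizes the core letters TGTGGT or TGCGGT in DNA. Noncoding genes include long noncoding RNAs (lncRNAs), microRNA precursors, the small RNAs of the spliceosome and the ribosome, and pseudogenes. A start annotated as noncoding can coincide with an alternative promoter of a coding gene, and CpG-rich promoters often start transcription in both directions.

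The RUNX core letters were present at 52 of the 380 RUNX1 summits, within 50 bases either side. The windows of 7 members are printed to show where the letters fell, with each TGTGGT or TGCGGT, read on either strand, in capitals. The summit is the middle base of each window. These members were picked, at high RUNX1 fold enrichment, from those whose window held the letters. ENSG00000231881 (152), LINC03015 (129) and MIR4513 (119.5) had higher RUNX1 folds than any printed member and no such letters at their RUNX1 summits. TGTGGT or TGCGGT was present in 14.5% of the same windows over all 4550 shared regions.

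MIR7114, chr9:137450267-137450367, plus strand: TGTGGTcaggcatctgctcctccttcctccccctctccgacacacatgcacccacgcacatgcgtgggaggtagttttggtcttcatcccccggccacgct
PCAT7, chr9:94554493-94554593, plus strand: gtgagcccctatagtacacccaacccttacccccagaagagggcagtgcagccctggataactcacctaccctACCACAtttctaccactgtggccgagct
LINC01451, chr9:136619849-136619949, plus strand: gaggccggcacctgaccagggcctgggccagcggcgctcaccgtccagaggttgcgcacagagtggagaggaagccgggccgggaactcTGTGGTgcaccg
ENSG00000279422, chrX:49167038-49167138, plus strand: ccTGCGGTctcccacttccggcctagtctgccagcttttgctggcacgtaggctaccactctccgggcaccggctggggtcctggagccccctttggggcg
ENSG00000279821, chr5:177479957-177480057, plus strand: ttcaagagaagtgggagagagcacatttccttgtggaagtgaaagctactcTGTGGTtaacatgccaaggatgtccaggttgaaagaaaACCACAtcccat
ENSG00000269243, chr19:16139944-16140044, plus strand: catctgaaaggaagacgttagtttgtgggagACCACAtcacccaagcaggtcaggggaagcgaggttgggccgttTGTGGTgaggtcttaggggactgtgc
NEAT1, chr11:65418913-65419013, plus strand: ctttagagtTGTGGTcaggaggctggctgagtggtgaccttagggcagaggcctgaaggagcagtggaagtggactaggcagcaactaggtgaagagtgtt

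In these windows the centre of the nearest match lay from 3.5 bases (ENSG00000279821) to 47.5 bases (MIR7114) from the summit. Over the 52 members with a match the median distance was 18.5 bases, and 28 had a match centred within 20 bases. These distances were not computed for other shared regions or for random placement, so whether matches gather at the summit was not tested. The MIR7114, PCAT7 and LINC01451 windows were read at RUNX1 fold enrichments of 103, 76.7 and 70.7. The NEAT1 window lies upstream of the gene, as described below, and its nearest noncoding start is that of ENSG00000290057.

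Fold enrichment is the fragment pileup at the summit over the background, each with 1 added, as the peak caller gave it. Among the 380 regions PTBP1 fold enrichment had a median of 16.9, with quartiles of 12.1 and 26.7 and a range of 5.80 to 187. RUNX1 fold enrichment had a median of 18.0, with quartiles of 11.8 and 26.5 and a range of 6.19 to 152. The median summit held 29 PTBP1 fragments and 24 RUNX1 fragments, and the lowest held 12 and 8. The background was a single usual value at most peaks, 0.720 fragments at 95.1% of PTBP1 peaks and 0.330 at 94.9% of RUNX1 peaks. Most folds are therefore not set against a local level. At the usual background the same fold stands for more PTBP1 fragments than RUNX1 fragments. PTBP1 fold enrichment was the higher of the pair at 203 regions (53.4%), against 61.2% of shared regions at coding starts and 40.0% of those away from starts. Across the 380 regions Spearman's rho between the folds was 0.443, as a description over regions that share both libraries.

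**Figure D1:**
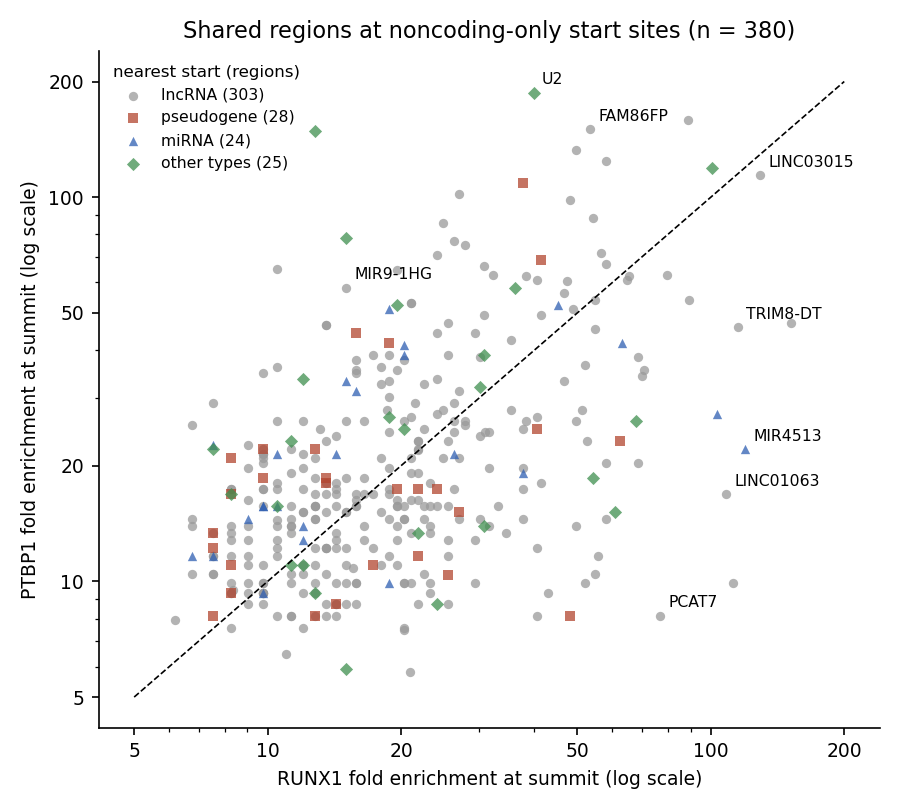
PTBP1 against RUNX1 fold enrichment at the strongest summit of each of the 380 regions, both axes on a log scale, with the dashed line marking equal folds and symbols giving the type of the nearest noncoding gene. Points spread on both sides of the line, from PCAT7 (8.14 for PTBP1 and 76.7 for RUNX1) to U2 (187 and 39.8).

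The region of highest PTBP1 fold enrichment, chr17:43251442-43252386, lay at a copy of the U2 small nuclear RNA, which pairs with the intron branch point in the spliceosome. It had 321 PTBP1 fragments and a fold of 187, and a RUNX1 fold of 39.8 from 52 fragments. Both summits lay at the same base, 313 bases downstream of the annotated start. Second was a lncRNA start, ENSG00000268120, inside PRR36 on chromosome 19, at 159 for PTBP1 and 88.7 for RUNX1. The others among the 10 highest in the PTBP1 list were 4 FAM86 pseudogene copies, a start of the annotation type TEC, for transcripts awaiting experimental work, a region with the MIR6724-4 start on the short arm of chromosome 21, the paired lncRNAs LINC03015 and LINC03014, and ENSG00000289222 on chromosome 16 (124 and 57.9).

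In the RUNX1 list the highest fold was 152, from 201 fragments, at lncRNA ENSG00000231881 (chr6:44058160-44059605), where PTBP1 reached 47.1. LINC03015 and LINC03014, whose starts share chr7:149056-150532, came next at 129 for RUNX1 and 114 for PTBP1. MIR4513, inside the kinase gene CSK, had a RUNX1 fold of 119.5 and a PTBP1 fold of 22.1. TRIM8-DT had 115 and 45.9, LINC01063 had 108 and 16.9, and MIR7114 had 103 and 27.3. The RUNX1 and PTBP1 summits at MIR7114 lay 231 and 2943 bases upstream of its start, in a region of 9634 bases. ENSG00000254777 on chromosome 8 had 112 and 9.88. A region at LINC01004 and KMT2E-AS1, beside the gene of the chromatin regulator KMT2E, had 89.5 and 54.1. Only 3 regions were among the 10 highest in both lists: ENSG00000268120, LINC03015 with LINC03014, and the MIR6724-4 region.

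The ratio of the folds differed most at ENSG00000286155, a TEC start on chromosome 21, where PTBP1 stood at 148 and RUNX1 at 12.8. ENSG00000271781 on chromosome 5 had 65.1 and 10.5, read at separate sites of a region of 8362 bases. Its strongest PTBP1 and RUNX1 summits lay 3961 and 6606 bases upstream of the start. MIR9-1HG, the host of a microRNA known from neural development, had 58.1 and 15.0. At the other end, ENSG00000254777 had a log2 ratio of PTBP1 over RUNX1 of -3.50, PCAT7 of -3.24 and LINC01063 of -2.68. These ratios set lists with different backgrounds side by side and are not calibrated amounts.

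The start base of a noncoding gene lay inside 282 regions (74.2%). In 293 regions a single noncoding start was within 1 kb, in 71 there were 2, and in 16 there were 3 or more. The median width was 1131.5 bases, with quartiles of 766 and 1613, against 1047 bases at coding starts and 946 away from starts. The strongest PTBP1 summit lay a median of 265.5 bases from the nearest noncoding start. Measured to that same start, the strongest RUNX1 summit lay a median of 274 bases away, although another noncoding start may be closer to it. At coding starts the median for PTBP1 was 173 bases, and 86.7% of those regions held the start base. PTBP1 summits were within 100 bases of the start in 87 regions and within 500 bases in 260. In 59 regions the PTBP1 summit, and in 66 the RUNX1 summit, was over 1000 bases from the start nearest the PTBP1 summit. Such a region is counted from its edge. The closest summits of the 2 proteins were a median of 82.5 bases apart and within 100 bases in 214 regions (56.3%), against 57.7% at coding starts and 55.9% away from starts.

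PTBP1 summits lay at or downstream of the start in 170 regions (44.7%), against 49.9% at coding starts, which is a description, since start positions chose both classes. Each PTBP1 summit was set against the start nearest to it, in the direction of that gene.

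**Figure D2:**
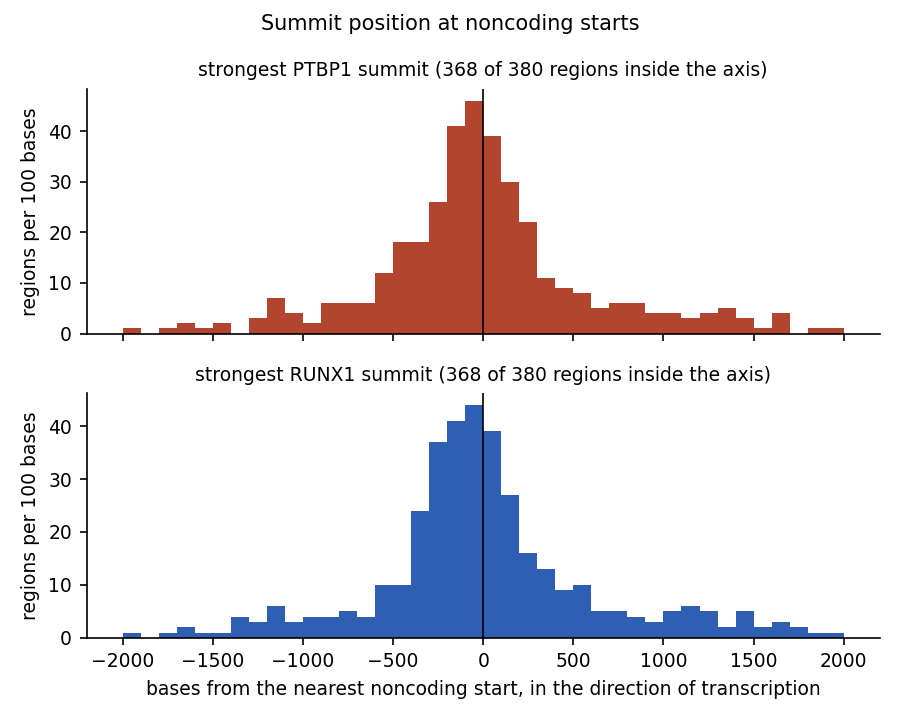
Number of regions per 100 bases by the position of the strongest PTBP1 summit (top) and RUNX1 summit (bottom), with negative values upstream. Both are relative to the noncoding start nearest the PTBP1 summit, which need not be the start nearest the RUNX1 summit. Both distributions peak next to the start and reach past 1000 bases on either side in 59 and 66 regions.

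By position, 213 regions (56.1%) had a PTBP1 summit outside any coding gene. Another 133 (35.0%) lay inside a coding gene on the strand opposite to the nearest noncoding gene, 28 inside a coding gene on the same strand, and 6 inside coding genes on both strands. The summit fell in a canonical coding-gene exon in 29 regions. The nearest coding gene start was a median of 16811 bases away, and over 10000 bases away in 254 regions.

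Coding genes also have alternative transcripts, whose 5′ ends the rule did not use. A coding transcript started within 1 kb of 114 members (30.0%), against 30.8% of shared regions away from starts (adjusted p = 0.951, Fisher's exact test). Among the 10 members of highest RUNX1 fold 5 had such a start, of PRR36, CSK (at MIR4513), TRIM8 (at TRIM8-DT), NSMF (at MIR7114) and KMT2E (at LINC01004). Among the 10 of highest PTBP1 fold there was 1, of PRR36. Other examples were ICE1 at ENSG00000286753 (98.2 for PTBP1 and 48.1 for RUNX1), DNPEP at DNPEP-AS1 (62.2 and 38.3), ESYT1 at ENSG00000258317 (61.0 and 64.7) and MYADM at MYADM-AS1 (60.5 and 47.4). The 114 regions had median folds of 15.7 for PTBP1 and 15.8 for RUNX1, and the other 266 had 16.9 and 18.8.

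The limits of the rule left near neighbours on either side. Just inside the noncoding limit were RN7SL181P at 983 bases (25.0 for PTBP1 and 20.3 for RUNX1) and ENSG00000285486 at 975 bases (8.14 and 11.3), and just outside it were COPS5P2 at 1003 bases (12.8 and 15.0) and HDAC2-AS2 at 1008 bases (20.9 and 9.77). On the coding side, ENSG00000279753 was kept at 1007 bases from ABCA7 (18.6 and 54.1) and VLDLR-AS1 at 1047 bases from VLDLR (9.30 and 9.77). ENSG00000287817 at 999 bases from SFI1 (16.3 and 22.6) and SLC39A13-AS1 at 955 bases from SLC39A13 (6.78 and 16.4) were left out.

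In base composition the 380 regions stood between both other classes. A window of 150 bases either side of the PTBP1 summit was counted as CpG-rich when GC content reached 50% and CpG was at least 0.6 of its expected frequency. By that measure 233 of 380 members were CpG-rich, or 61.3% with a 95% Wilson interval of 56.3% to 66.1%. The share was 87.9% at coding starts (odds ratio 0.219, adjusted p = 5.72e-32, Fisher's exact test) and 32.9% away from starts (odds ratio 3.24, adjusted p = 1.10e-21, Fisher's exact test), beside 69.8% over all shared regions. Median GC content was 64.5% at members, 68.1% at coding starts and 59.5% away from starts. Among members with a coding transcript start nearby 81.6% were CpG-rich, and among the others 52.6%.

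The RUNX core letters occurred at 13.7% of members' RUNX1 summits (95% Wilson interval 10.6% to 17.5%), fewer than the 22.0% away from starts (odds ratio 0.561, adjusted p = 0.00148, Fisher's exact test). At coding starts the share was 11.1%, a difference of 2.60 percentage points that did not pass the test (adjusted p = 0.273, Fisher's exact test). Around PTBP1 summits the letters occurred at 7.89% of members, 7.80% at coding starts (adjusted p = 0.998) and 14.6% away from starts (odds ratio 0.503, adjusted p = 0.00217), all by Fisher's exact test. Over all shared regions the PTBP1-summit share was 9.76%. When members with a coding transcript start were set aside, the 266 others held the letters at 15.4% of RUNX1 summits and 10.2% of PTBP1 summits, and neither difference from the regions away from starts passed (adjusted p = 0.0564 and 0.136, Fisher's exact test).

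PTBP1 binds pyrimidine-rich RNA, so runs of 12 or more pyrimidines on either strand were counted within 50 bases of PTBP1 summits. Such a run was present at 57 members (15.0%, 95% Wilson interval 11.8% to 18.9%), against 15.4% at coding starts (adjusted p = 0.983) and 17.4% away from starts (adjusted p = 0.504), by Fisher's exact test, and 16.0% over all shared regions. The run is a description of DNA letters at these windows.

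Letters of other promoter and myeloid factors were counted in the same windows, each on either strand and without regard to overlap. GGGCGG, the core bound by SP family factors at CpG-rich promoters, was present at 34.2% of members' RUNX1 summits, 45.7% at coding starts (adjusted p = 0.000211) and 22.7% away from starts (adjusted p = 0.000118), by Fisher's exact test. CCGGAA, a core of ETS factors, was present at 4.47% of members and 9.86% of regions at coding starts (adjusted p = 0.00148, Fisher's exact test). The NRF1 core, GCGC repeated after a gap of 2 bases, was present at 4.47% of members and 1.53% away from starts (adjusted p = 0.00711, Fisher's exact test). GAGGAAGT, the core of the myeloid ETS factor PU.1, was present at 11 members (2.89%) against 0.770% at coding starts (odds ratio 3.84, adjusted p = 0.00334, Fisher's exact test). TGANTCA, the AP-1 core, was also at 11 members (2.89%), against 1.12% at coding starts (adjusted p = 0.0338, Fisher's exact test). TTGCNNAA, a C/EBP core, was at 1.84% of members and 5.11% away from starts (adjusted p = 0.0123, Fisher's exact test). The remaining comparisons at RUNX1 summits did not pass Fisher's exact test. Away from starts the ETS letters were at 5.34% (adjusted p = 0.784, Fisher's exact test), the PU.1 letters at 1.98% (adjusted p = 0.504, Fisher's exact test) and the AP-1 letters at 4.12% (adjusted p = 0.510, Fisher's exact test). At coding starts the NRF1 letters were at 5.11% (adjusted p = 0.868, Fisher's exact test) and the C/EBP letters at 1.82% (adjusted p = 1, Fisher's exact test). CTCF letters were at 2 members and passed no test. Over all shared regions these letters occurred at 38.1% (SP), 8.11% (ETS), 4.02% (NRF1), 1.30% (PU.1), 2.13% (AP-1), 2.77% (C/EBP) and 0.308% (CTCF) of RUNX1 summits. At PTBP1 summits the SP, NRF1, AP-1 and ETS differences passed in the same directions, and those for PU.1 (1.58% against 0.735%, adjusted p = 0.250) and C/EBP (2.37% against 4.12%, adjusted p = 0.250) did not, by Fisher's exact test.

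**Figure D3:**
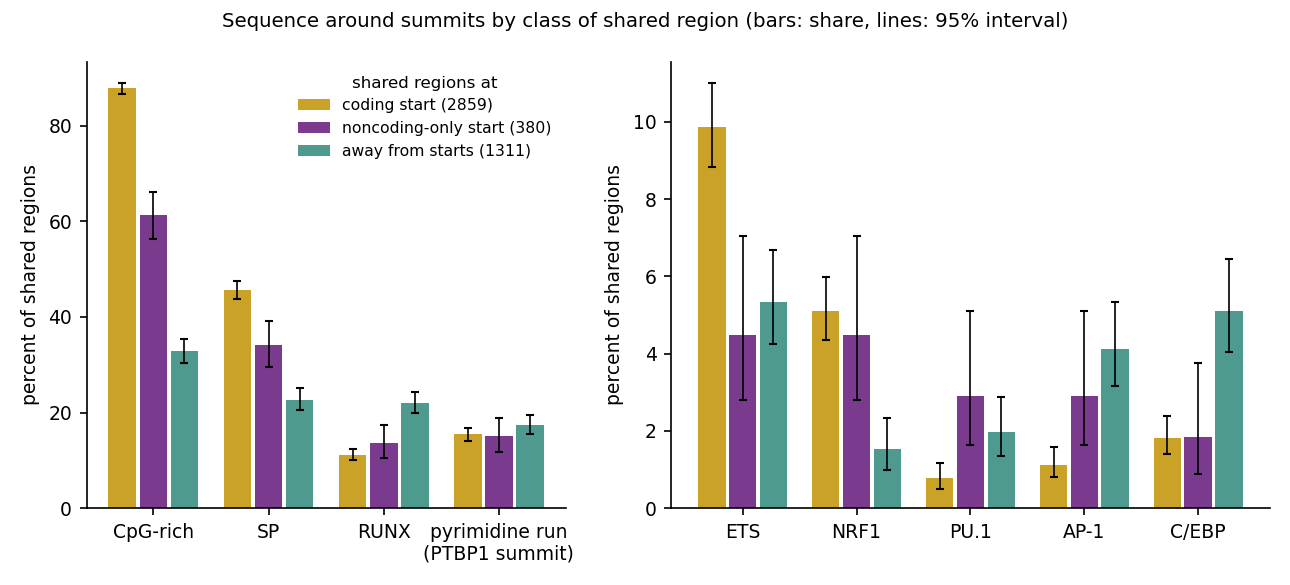
Percent of shared regions at coding starts, at noncoding-only starts and away from starts whose summit window was CpG-rich or held the letters of each motif, with 95% Wilson intervals. RUNX1 summits are used except for the CpG-rich share and the pyrimidine run, which use PTBP1 summits, and members fall between the other classes for the CpG-rich share (61.3%) and SP letters (34.2%).

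Of 42630 annotated noncoding genes, 487 had a start within 1 kb of a member, or 1.14%. lncRNAs made up 364 of these genes at 315 members, microRNAs 36 genes at 29 members, pseudogenes 48 genes at 46 members, small nuclear RNAs 9 genes at 8 members and small nucleolar RNAs 6 genes at 4 members. A lncRNA start was the only kind at 275 members, and 65 had no lncRNA start. At 185 members the nearest gene carried an Ensembl identifier in place of a symbol. By group, 1.93% of lncRNAs, 1.92% of microRNAs, 0.473% of small nuclear RNAs and 0.315% of pseudogenes were at a member.

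**Figure D4:**
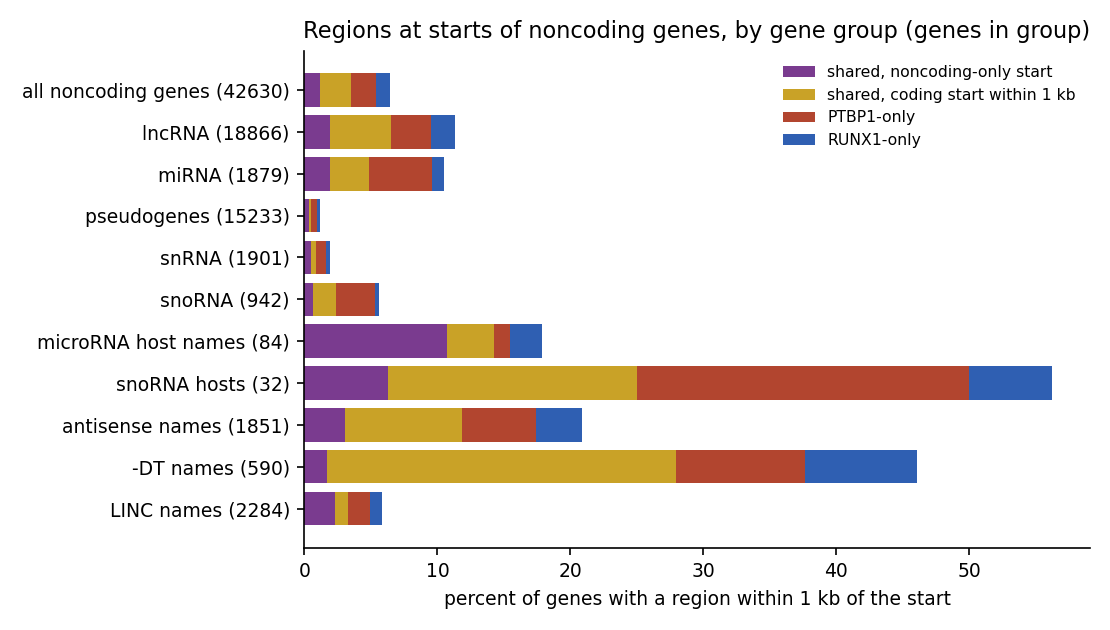
Percent of genes of each noncoding group with a region within 1 kb of the start, split into members, shared regions that also lie at a coding start, PTBP1-only and RUNX1-only regions, with the number of genes in brackets. The 9 genes with separate PTBP1 and RUNX1 regions are not drawn. Genes with microRNA host names have the widest member segment (10.7% of 84) and -DT genes the widest segment at coding starts (155 of 590).

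Genes named as microRNA hosts (MIR names ending in HG) were members in 9 of 84 cases (10.7%), beside 1.93% of lncRNAs and 1.14% of all noncoding genes. Hosts under other names, such as DLEU2, were not counted here. MIRLET7A1HG had a PTBP1 fold of 61.0 and a RUNX1 fold of 40.6, with summits 39 and 122 bases upstream of its start. MIR9-1HG had 58.1 and 15.0, and MIR23AHG 52.9 and 21.1. MIRLET7IHG (33.1 and 18.8), MIR210HG (25.0 and 13.1), MIR378D2HG (24.4 and 31.6), MIR200CHG (24.4 and 18.8), MIR762HG (14.5 and 9.02) and MIRLET7BHG (11.6 and 10.5) followed. At MIR23AHG the PTBP1 summit lay 3454 bases inside the gene and at MIR200CHG the RUNX1 summit lay 4070 bases upstream, so those regions reach a start by their edge.

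The precursor genes themselves were members in 36 cases, of which 31 matched a RefSeq microRNA on GRCh38.p14, with 44 mature sequences. A microRNA finds its target through the seed, bases 2 to 8, printed here in capitals for precursors of the MIR23AHG, MIRLET7IHG, MIR210HG and MIR200CHG hosts, for MIR132 and MIR212, which lie in 1 region, and for MIR4513, the microRNA start of highest RUNX1 fold.

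hsa-miR-132-3p: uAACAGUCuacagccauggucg
hsa-miR-212-3p: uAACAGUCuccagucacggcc
hsa-miR-23a-3p: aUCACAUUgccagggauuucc
hsa-miR-27a-3p: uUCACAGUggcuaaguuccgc
hsa-miR-24-3p: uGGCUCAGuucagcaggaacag
hsa-let-7i-5p: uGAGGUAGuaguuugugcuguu
hsa-miR-210-3p: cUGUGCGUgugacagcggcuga
hsa-miR-200c-3p: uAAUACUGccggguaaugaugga
hsa-miR-141-3p: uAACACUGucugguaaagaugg
hsa-miR-4513: aGACUGACggcuggaggcccau

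miR-132-3p and miR-212-3p carry the same seed, AACAGUC. Their region, chr17:2049349-2050667, had folds of 15.7 for PTBP1 and 9.77 for RUNX1, with the RUNX1 summit 23 bases upstream of MIR132. MIR23A, MIR27A and MIR24-2 lay in a region of their own, chr19:13835366-13837900, at 31.4 and 15.8, apart from the region at the start of their host MIR23AHG. These microRNAs are abundant in blood cells. The let-7i precursor lay in the region of MIRLET7IHG, and MIR210, whose product is known as a hypoxia-induced microRNA, in that of MIR210HG. MIR200C and MIR141 have seeds AAUACUG and AACACUG, and their PTBP1 summit lay 1698 bases and 2096 bases upstream of them. At MIR210HG the RUNX1 background was raised to 1.36 fragments, so its RUNX1 fold of 13.1 rested on 30 fragments. Coding transcripts started within 1 kb at 12 of the 29 microRNA regions, against 30.0% of all members.

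Genes that host small nucleolar RNAs were members in 2 of 32 cases (6.25%), beside 1.93% of lncRNAs and 1.14% of all noncoding genes. This difference was not tested. SNHG29 had 47.1 for PTBP1 and 25.6 for RUNX1, with SNORD49A and SNORD49B starts also within 1 kb, and SNHG7 had 38.4 and 30.1 with SNORA17A. Another 6 hosts, among them GAS5 (34.3 and 17.3) and ZFAS1 (58.7 and 33.8), were shared at a coding start and therefore not members. With the members, 25% of the hosts were at a shared region, beside 6.52% of lncRNAs and 3.51% of all noncoding genes. A further 8 had PTBP1 peaks alone and 2 RUNX1 peaks alone, beside 562 and 341 of all 18866 lncRNAs.

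Among small nuclear RNAs, after the U2 copy, RNU6ATAC had 52.3 for PTBP1 and 19.5 for RUNX1. RNU6ATAC and RNU4ATAC (13.4 and 21.8) encode RNAs of the minor spliceosome, which removes a small class of introns. RNVU1-27 (33.7 and 12.03) and RNVU1-14 (23.3 and 11.3) are variant U1 genes, RNU5E-1 (26.7 and 18.8) and RNU5D-1 (11.05 and 12.03) are U5 genes, and RNU2-4P (29.1 and 7.52) is a U2 pseudogene. RN7SL2, a gene for the RNA of the signal recognition particle, had 58.1 and 36.1. SCARNA2, a guide RNA of Cajal bodies, had 11.6 and 7.52, with the RUNX1 summit 4 bases downstream of its start. VTRNA1-1, a vault RNA, had 12.8 and 8.27, and a U3 copy 22.1 and 7.52. ENSG00000278775, in the MIR6724-4 region (119 and 100.8), and ENSG00000278144, in the NEAT1 region (88.4 and 54.1), are further starts of the list, of the annotation type misc_RNA. PTBP1 fold enrichment was the higher of the pair at 17 of the 22 regions of the list, where it was at 53.4% of all members. Over the whole list 27 of 5114 small structured RNA genes (0.528%) were at a member, beside 1.14% of all noncoding genes. Many of these genes have near-identical copies, so assignment of reads to a particular copy is uncertain.

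Among lncRNAs known from blood cells and leukemia, 3 of 42 were members (7.14%), beside 1.93% of all lncRNAs and 1.14% of all noncoding genes. This difference was not tested, and the list was chosen with earlier results of these data known. NEAT1, the scaffold RNA of nuclear paraspeckles, had 88.4 for PTBP1 (151 fragments) and 54.1 for RUNX1 (71 fragments). Its region spans 8029 bases, chr11:65416261-65424289, and the PTBP1 and RUNX1 summits lay 3670 and 3811 bases upstream of the NEAT1 start. Both summits were closer to another noncoding start, ENSG00000290057, at 2344 and 2485 bases upstream of it, so the region cannot be assigned to NEAT1 alone. DLEU2, which hosts microRNAs lost in lymphoid leukemia, had 25.0 and 22.6, and KCNQ1OT1, an imprinted antisense RNA, had 16.9 and 14.3 with summits 229 and 140 bases upstream of its start. MALAT1 had a PTBP1 peak alone at its start (20.3), while TALAM1, antisense to MALAT1, was a member at 46.5 and 13.5. MIR22HG (101.2 and 35.3), CRNDE (40.1 and 39.8) and OIP5-AS1 (11.6 and 32.3) were shared at coding starts. With the members, 14.3% of the list was at a shared region, beside 6.52% of all lncRNAs. RUNX1 peaks alone were at EGOT (22.6), PCED1B-AS1 (23.3) and MIR223HG (9.02), PTBP1 peaks alone also at MIR142HG (7.31) and DLEU1 (8.14), and MIR17HG had peaks of both proteins in separate regions. The other 29, including the lncRNAs of the HOXA and HOXB clusters on the list, had no peak within 1 kb of their starts. Of all 18866 lncRNAs, 16723 had none, 562 had PTBP1 peaks alone and 341 had RUNX1 peaks alone.

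Genes with antisense names were members in 56 of 1851 cases (3.03%), beside 1.93% of all lncRNAs. A coding transcript started within 1 kb at 34 of their 56 regions, against 30.0% of all members. The strongest for PTBP1 were SLC9A3-AS1 (76.7, and 26.3 for RUNX1), DNPEP-AS1 (62.2) and MYADM-AS1 (60.5), and for RUNX1 KMT2E-AS1 (89.5), DENND3-AS1 (54.9) and MYADM-AS1 (47.4). A few antisense members beside genes of the myeloid lineage were singled out after their values were seen. GATA2-AS1, divergent from the stem-cell factor gene GATA2, had 18.0 and 13.5, and a GATA2 transcript started within 1 kb. ITGB2-AS1, at the gene of the leukocyte integrin beta chain, had 9.88 for PTBP1 and 29.3 for RUNX1. MEF2C-AS2 had 7.56 and 8.27 and ENTPD1-AS1 9.30 and 9.02, near the low end of both lists.

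Genes named as divergent transcripts (-DT) were members in 10 of 590 cases (1.69%), beside 1.93% of lncRNAs and 1.14% of all noncoding genes. Another 155 were shared at coding starts. With the members, 28.0% of -DT genes were at a shared region, beside 6.52% of lncRNAs. A coding transcript started within 1 kb of all 10 member regions, against 30.0% of all members. PTBP1 fold enrichment was the higher of the pair at 53.4% of all members. Of the 10, RUNX1 fold enrichment was the higher at 8, from TWF2-DT (8.72 for PTBP1 and 13.5 for RUNX1) to TRIM8-DT (45.9 and 115). EIF2AK3-DT (27.9 and 24.8) and CTBP1-DT (38.9 and 17.3) were the others. Intergenic lncRNAs with LINC names were members in 53 of 2284 cases (2.32%) at 50 regions, beside 1.93% of all lncRNAs. A coding transcript start was nearby at 2 of those regions, against 30.0% of all members. After LINC03015 and LINC03014 the strongest for PTBP1 was LINC02018 (85.5), whose start shares a region with FAM86DP, and for RUNX1 LINC01063 (108).

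Of the 46 pseudogene regions, 9 lay at copies of 1 family, FAM86. The family was singled out after its values were seen and carries no test. Its parent is EEF2KMT, a protein-coding gene whose product methylates elongation factor eEF2, and most copies are annotated as unprocessed pseudogenes, which arise by duplication of genomic DNA. The stretch of 61 bases around the PTBP1 summit of FAM86FP is printed with its best ungapped match near the start of the copies, in the direction of transcription, with bases that differ from FAM86FP in capitals. It is shown because the copies carry the sequence of the FAM86FP summit with few changes.

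FAM86FP, chr12:8243217-8243277, minus strand: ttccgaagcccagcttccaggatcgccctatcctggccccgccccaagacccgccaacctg
FAM86C2P, chr11:67805584-67805644, minus strand: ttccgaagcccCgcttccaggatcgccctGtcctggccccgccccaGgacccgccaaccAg
FAM86GP, chr11:3422768-3422828, minus strand: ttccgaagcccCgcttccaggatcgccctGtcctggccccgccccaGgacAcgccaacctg
FAM86C1P, chr11:71787217-71787277, plus strand: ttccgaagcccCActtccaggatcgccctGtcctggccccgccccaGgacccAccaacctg
FAM86DP, chr3:75435345-75435405, minus strand: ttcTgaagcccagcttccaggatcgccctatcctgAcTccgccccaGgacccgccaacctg
FAM86EP, chr4:3955652-3955712, minus strand: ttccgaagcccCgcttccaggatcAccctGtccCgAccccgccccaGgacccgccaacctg
FAM86KP, chr4:9152963-9153023, plus strand: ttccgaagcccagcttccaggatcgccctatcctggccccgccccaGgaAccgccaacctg
FAM86JP, chr3:125916292-125916352, plus strand: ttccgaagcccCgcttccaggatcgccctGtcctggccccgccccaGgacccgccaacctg
EEF2KMT, chr16:5097998-5098058, minus strand: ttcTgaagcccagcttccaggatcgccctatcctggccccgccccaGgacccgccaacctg
FAM86HP, chr3:130111744-130111804, minus strand: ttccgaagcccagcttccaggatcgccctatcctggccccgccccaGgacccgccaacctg

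The 8 other copies with a shared region differed from FAM86FP at 2 to 6 of the 61 bases, counting FAM86B3P, whose 4 differences are not printed. GGGCGG, the SP core, was present on the opposite strand in FAM86FP and in each printed copy, as at 37.7% of PTBP1 summit windows of all shared regions. The matched stretch lay 263 to 304 bases upstream of the annotated start of the 9 members. The copies' own PTBP1 summits lay 265 to 456 bases upstream, and inside the stretch at 3 of the 9. Their RUNX1 summits lay 238 to 447 bases upstream, and inside it at 2 of the 9.

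PTBP1 fold enrichment at the 9 copies was 151 at FAM86FP, 133 at FAM86C2P, 109 at FAM86GP, 102 at FAM86C1P, 85.5 at FAM86DP, 75.0 at FAM86EP, 44.2 at FAM86KP, 28.0 at FAM86JP and 20.3 at FAM86B3P. RUNX1 fold enrichment was 53.4, 49.6, 37.6, 27.1, 24.8, 27.8, 15.8, 18.6 and 9.77 in the same order. PTBP1 was higher at all 9, by a ratio of 1.51 to 3.76. EEF2KMT, which is no member because it codes for protein, was shared at 102 for PTBP1 and 28.6 for RUNX1, inside the range of its copies. FAM86JP had a raised background, so its PTBP1 fold of 28.0 rested on 193 fragments, more than the 174 at EEF2KMT.

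FAM86HP differed from FAM86FP at 1 of the 61 bases and had no peak of either protein within 1 kb of its start. FAM86B1, a coding copy with 3 differences, had no peak, and FAM86B2, also coding with 3 differences, had a PTBP1 peak alone (9.88). No close match to the stretch was found near the starts of FAM86LP and FAM86MP (31 and 29 differences), which also had no peak. Over 301 bases around the annotated start, the 9 members were pairwise 84.2% to 95.3% identical, with a median of 90.7% over 36 pairs. This window does not reach their summits, which lay at least 265 (PTBP1) and 238 (RUNX1) bases upstream of the start. Reads kept by the study had mapping quality above 30, which leaves out fragments that fit several copies equally well. How much that moved the values of single copies was not tested.

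**Figure D5:**
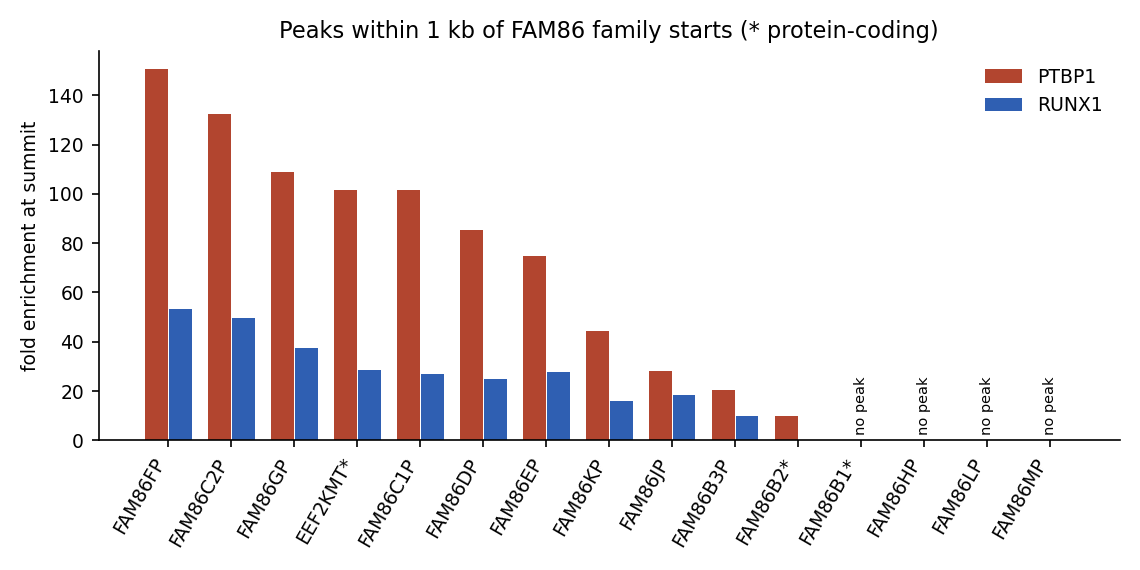
PTBP1 and RUNX1 fold enrichment at the strongest summits within 1 kb of the start of each FAM86 family gene, with asterisks for protein-coding genes. PTBP1 bars run from 151 at FAM86FP to 9.88 at FAM86B2 and RUNX1 bars are lower at every gene with both, while 4 genes have no peak.

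Among pseudogenes of other families, TMEM191A had 68.6 for PTBP1 and 41.4 for RUNX1, ENSG00000224579, a copy inside RPS9, had 23.3 and 62.4, and MARK2P17 had 8.14 and 48.1.

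Some members lay close to each other. On the short arm of chromosome 21, where ribosomal RNA genes are repeated, 5 members lay between 8233655 and 8988576. ENSG00000286155 had 148 for PTBP1 and 12.8 for RUNX1 and ENSG00000286146 had 78.5 and 15.0, whereas the MIR6724-4 region had 119 and 100.8 and the MIR3648-2 region 52.3 and 45.1. RNA5-8SN1, a gene for 5.8S ribosomal RNA, had 16.9 and 18.8. The background there was the usual 0.720 and 0.330 fragments, and reads from repeated copies cannot be placed with certainty. Another 5 members lay between 81326074 and 81937610 on chromosome 17. Within 1 Mb of a chromosome end lay 30 members (7.89%), against 6.02% of all shared regions. A raised background, above 1.5 times the usual, was found at 15 members (3.95%), among them DINOL (6.49 and 11.03) beside CDKN1A, and MTCYBP35 (10.4 and 25.5), a pseudogene of mitochondrial cytochrome b.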

How the data were processed

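Both lists were made by the authors. Per the study's methods, 150-bp paired-end reads were aligned to hg38 with Bowtie2, alignments with a mapping quality above 30 were kept, duplicates were removed and MACS3 peaks were called at a q-value limit of 1e-07. The submitters' processing notes also name FastQC, cutadapt, SAMtools, Picard and bedtools 2.30.0. Each list names a target but no assay or replicate, and whether replicates were pooled is not stated. They were treated as CUT&Tag, the assay for which the methods give peak calling.

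The deposited fold enrichment is a ratio of the summit pileup to background, each with 1 added, the deposited −log10 p-value and −log10 q-value give its significance, and the deposited score is derived from the q-value. Fold and −log10 p were solved together for a whole fragment count and a background (largest difference 0.00134), which is the depth given. Library totals were not used here. A region with several peaks of a protein was represented by the strongest.

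Gene and transcript 5′ ends, exons and strands came from GENCODE version 44 (20033 protein-coding and 42630 other genes, including 648 immunoglobulin and T cell receptor segments), sequence from hg38 and mature microRNAs from RefSeq. Shares were compared by two-sided Fisher's exact tests, with Benjamini-Hochberg adjustment over 38 comparisons, of which 16 passed 0.05. Neighbouring regions and gene copies are not independent, and p-values cover the regions of these lists, not the spread between cultures. The members and gene lists were chosen with earlier results of these data known. Named genes were those at the 10 members of highest fold in each list, the strongest of each biotype, the members nearest to the limits and the members of the gene lists (for lists over 10 members, the 3 strongest in each peak list); the FAM86 family, further small structured RNA genes, microRNA precursors, pseudogenes and antisense genes, TALAM1 and single genes beside the clusters were named after their values were seen. Alternatives covered the start window, the summit distance, the significance limit, the biotype, the sequence window, coding transcript starts and the dense stretch of chromosome 1; 2 more, leaving out the FAM86 copies or regions of raised background, were chosen after seeing the data. On simulated data all 300 planted shared regions and 80 planted noncoding-only regions were recovered, 400 of 400 planted motifs were found, and 8 of 200 equal shares were called. Software: Python 3.11.15, scipy 1.17.1, pandas 2.3.3, numpy 2.4.6, biopython 1.88 and matplotlib 3.10.9.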

Additional observations from a re-analysis of the deposited data

How the results depend on the processing

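No paired analysis was possible because each protein has a single peak list with no values per replicate, and for the same reason no replicate could be left out. The number of members ranged from 266 to 413 over 8 alternative rules. Of 97 alternative values of 10 comparisons, 83 kept their direction and their side of the threshold, including all of those for CpG-rich summits, whose difference ranged from -35.2 to -22.5 percentage points against coding starts and from 19.8 to 32.1 against regions away from starts. All values below are members minus the other class in percentage points.

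With members beside a coding transcript start left out, the RUNX letters no longer passed against regions away from starts, at RUNX1 summits (-6.63, adjusted p = 0.0564, Fisher's exact test) or PTBP1 summits (-4.42, adjusted p = 0.136, Fisher's exact test), where fewer members were tested. With 100 bases either side, RUNX letters at RUNX1 summits passed against coding starts (5.46, adjusted p = 0.0328, Fisher's exact test). The share of summits downstream of the start, a description, was -5.21 with PTBP1 summits and -8.64 with RUNX1 summits, each set against the start nearest to it.

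Differences near 0 changed sign without passing. RUNX letters at PTBP1 summits against coding starts were -0.214 with a 500-base window, -0.635 with summits at most 200 bases apart, -0.364 with −log10 q of at least 10, -0.816 with lncRNAs only and -0.199 without regions of raised background. Pyrimidine runs against coding starts were 1.497 with 100 bases either side and 0.448 with lncRNAs only. Coding transcript starts against regions away were 1.72 with basic transcripts, 0.599 within 500 bases and 1.37 with lncRNAs only. The cause of these changes was not tested. Comparisons of repeat-masked summits, with 14 alternatives, were not run, since the genome sequence used here does not mark repeats.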
